A study of Mus musculus with 12 samples.

Results

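MicroRNA genes with H4K8ac, acetylation of lysine 8 on histone H4, in chromatin of mouse oligodendrocyte progenitor cells (OPCs) are described here at a neonatal and an adult age. They are the genes to which the authors' peak annotation assigned at least 1 peak and whose symbol is that of a microRNA or let-7 gene, host genes with a symbol ending in hg included. This gave 343 of the 23459 genes in the peak lists, of which 9 were host genes. The OPCs came by sorting from forebrain tissue of PdgfrαH2BEGFP mice, at postnatal day 5 for the neonatal and day 60 for the adult group. All carry the same reporter, a nuclear green fluorescent protein driven by Pdgfra, which other cells that express Pdgfra could also light up. Of the 12 samples, 3 neonatal and 3 adult libraries were immunoprecipitated with an H4K8ac antibody (Active Motif 61103) and have peak lists, and 6 are input libraries, not analysed here. The labels call the libraries of an age biological replicates and do not say whether each came from 1 animal or from a pool.

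A microRNA is a short RNA cut from a hairpin in a longer transcript. Its seed, bases 2 to 8 from the 5′ end, pairs with messenger RNAs and lowers their translation or stability. Many hairpins lie inside a host gene and share its promoter, and others have a start site of their own far from the hairpin. In the oligodendrocyte lineage, miR-219 and miR-338 are known to promote the step from progenitor to myelinating cell. H4K8ac marks active promoters and enhancers.

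The mature microRNAs below are those on which the lineage results turn, with the seed in capitals. All are written 5′ to 3′ as RNA, from the RefSeq annotation of GRCm38.p6.

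miR-219a-5p: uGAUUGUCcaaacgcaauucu
miR-338-3p: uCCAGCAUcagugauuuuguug
miR-338-5p: aACAAUAUccuggugcugagug
let-7i-5p: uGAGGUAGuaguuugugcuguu
let-7b-5p: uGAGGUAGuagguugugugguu
let-7c-5p: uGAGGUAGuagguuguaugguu
miR-132-3p: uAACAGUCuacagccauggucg
miR-212-3p: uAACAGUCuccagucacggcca

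The let-7 products share the seed GAGGUAG, which by the textbook rules of targeting pairs with the same sites. Outside the seed, let-7i-5p differed from let-7b-5p at 3 of 22 bases and from let-7c-5p at 4, and let-7b-5p differed from let-7c-5p at 1. The microRNAs miR-132-3p and miR-212-3p shared the seed AACAGUC and differed at 5 of 22 bases. Genes on chromosome 18 were left out of the seed counts that follow. Outside it, 299 of the 343 genes had a mature sequence in RefSeq, with 438 different seeds among 477 mature sequences. A seed was shared by more than 1 gene in 31 cases, which took in 61 genes. GAGGUAG was the most widely shared, by Mir1961, Mirlet7b, Mirlet7c-2, Mirlet7d and Mirlet7i. These counts rest on the mature sequences that were matched to each gene and may be incomplete. Mirlet7a-2, also among the 343 genes, was not matched to a sequence with this seed.

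The 2 hairpins at the centre of the results lie at chr2:29845631-29845727, minus strand (Mir219a-2), and at chr11:120014765-120014862, minus strand (Mir338), on GRCm38. Capitals mark the mature microRNAs that were matched to each in the annotation. These were miR-219a-5p alone in Mir219a-2, and miR-338-5p and miR-338-3p in Mir338. Mir219a-2 lies within the RefSeq span of Cercam and Mir338 within Aatk.

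Mir219a-2: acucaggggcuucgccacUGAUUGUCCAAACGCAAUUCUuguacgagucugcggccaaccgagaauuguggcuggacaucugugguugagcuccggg
Mir338: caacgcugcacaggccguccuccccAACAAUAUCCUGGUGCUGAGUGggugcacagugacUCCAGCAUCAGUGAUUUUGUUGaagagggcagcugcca

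The libraries differed in how many peaks were called. The neonatal lists held 9097, 31189 and 7353 peaks, in the order of the replicates, and the adult lists 72278, 72661 and 77002. Neonatal replicate 2 stood apart from the other 2 neonatal lists, so results that rest on it are named. Read depth is unknown from these files, so a gene with no peak is one where none was called, and not one shown to lack the mark. Promoter peaks were found at all 7 OPC marker genes checked (such as Pdgfra, Cspg4 and Sox10) in 5 libraries and at 6 in adult 3. Of 6 mature oligodendrocyte markers (such as Mog, Mag and Mbp), each neonatal library had such a peak at 1 and each adult library at all 6. Of 5 microglial markers, the neonatal libraries had such a peak at 0 and each adult library at 1, with none at Csf1r, P2ry12, Aif1 or Tmem119 in any library. The share of these cells or of acetylation per cell cannot be told apart in sorted bulk chromatin.

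Promoter peaks at microRNA genes were more numerous in the adult lists. A promoter peak is one the annotation placed within 3000 bp of a start site, which for most members is the first base of the hairpin and not the start of the primary transcript. Neonatal libraries 1, 2 and 3 had a promoter peak at 36, 97 and 30 of the microRNA genes, and adult libraries 1, 2 and 3 at 145, 155 and 165. All 3 adult libraries lay above all 3 neonatal ones, with means of 155 ± 10 and 54.3 ± 37.1 (SD, n = 3). As a ratio of adult to neonatal geometric means, this was 3.28 for microRNA genes and 1.95 for all genes. With only the 7353 strongest peaks of each list by the authors' score, as many as the shortest list holds, the neonatal libraries had 26, 27 and 30 microRNA genes and the adult libraries 18, 21 and 20. That ratio was 0.711, against 0.978 for all genes, so the direction of the count turned when the lists were made equally long.

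**Figure D1:**
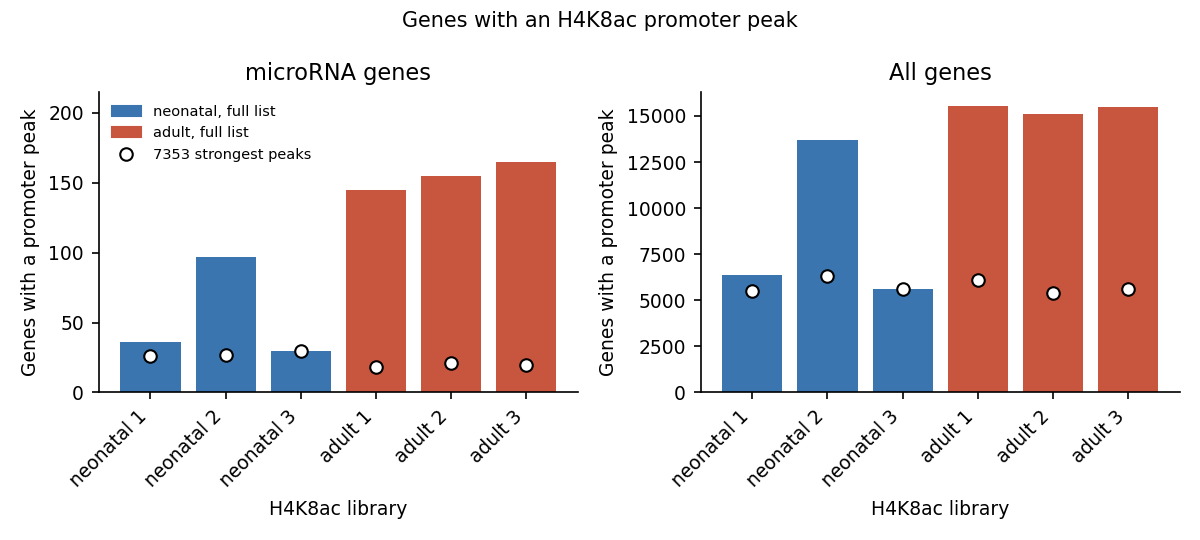
Bars give the number of microRNA genes (left) and of all genes (right) with an H4K8ac promoter peak in each library, from the full lists (blue neonatal, red adult); white circles give the number from the 7353 strongest peaks of each list. The adult bars for microRNA genes stand between 145 and 165 and the neonatal ones between 30 and 97, while the circles stand between 18 and 30 in all 6 libraries.

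The position of the peaks assigned to microRNA genes also differed between the ages. In the neonatal libraries 70.2%, 51.3% and 68.9% of the peaks assigned to microRNA genes were promoter peaks, and in the adult libraries 37.8%, 38.5% and 37.0%. The same shares over all peaks were 85.2%, 67.5% and 88.8% in the neonatal and 43.9%, 43.1% and 40.4% in the adult libraries. MicroRNA genes took 0.627%, 0.895% and 0.612% of all neonatal peaks and 1.03%, 1.03% and 1.08% of all adult peaks. Median peak width at microRNA genes was 258, 318 and 233 bp in the neonatal and 326, 348 and 390.5 bp in the adult libraries.

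Of the 343 genes, 237 had a promoter peak in at least 1 library, 206 in an adult and 107 in a neonatal one. Of these 237, 52 (21.9%) had one in all 3 adult libraries and in none of the neonatal ones, where the share over all genes with a promoter peak was 12.1%. Without neonatal replicate 2 this count was 80, and leaving out a library cannot lower it. The rise came from genes with a promoter peak in 1 neonatal and 3 adult libraries. That pattern was found at 28 of the 237 microRNA genes and at 4528 of the 18569 genes of any kind. Only Mir8102 (0.422% of the 237) had the reverse pattern, against 0.264% of all genes. A promoter peak in all 6 libraries was found at 15 microRNA genes (6.33%), against 21.5% of all genes, and 63 (26.6%) had one in a single library, against 12.7%. In neonatal replicate 2 alone were 21 of the 63.

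Peak assignment gives each peak to 1 gene, and a microRNA gene often competes with its host. Of the 343 genes, 262 (76.4%) lay within the RefSeq span of another gene and 102 (29.7%) had another gene's start within 3000 bp. Among the 52 genes with adult promoter peaks alone, 47 lay within another gene, and 7 of the 15 genes with a promoter peak in all 6 libraries did. Of the microRNA hairpins that lay under a peak, 14.3%, 31.3% and 21.4% in the neonatal libraries and 41.5%, 37.6% and 42.2% in the adult libraries had that peak assigned to another gene. The bases under any peak within 3000 bp of the gene's start, whatever gene the peak was assigned to, were therefore counted as a second measure. This window holds 6001 bases for a gene with 1 start site.

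By this measure, 246 microRNA genes had a covered base in some library. In 139 of them (56.5%) every adult library lay above every neonatal one, where the share over all genes was 68.9%. The reverse was found at 0 microRNA genes, against 0.186% of all genes. An exact two-sided permutation test over the 20 arrangements of 3 against 3 libraries cannot give p below 0.1, and the smallest Benjamini-Hochberg adjusted value over all genes was 0.145. No single gene could therefore pass a threshold of 0.05 on covered bases, and values below are given with their spread.

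The authors' deposited table of differential sites lists only sites with an adjusted p below 0.05, and its sign was read as adult over neonatal. In the authors' deposited table, 107 of the 237 microRNA genes with a promoter peak (45.1%) had a promoter site whose most significant entry was higher in adult cells, against 64.4% of all genes. A site higher in neonatal cells was listed for 2 (0.844%), Mir148a and Mir203, against 0.679% of all genes. The median log2 fold change of these sites in the authors' deposited table was 2.46 over 109 microRNA genes, with quartiles of 1.88 and 3.61, and 1.77 over 12088 genes.

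**Figure D2:**
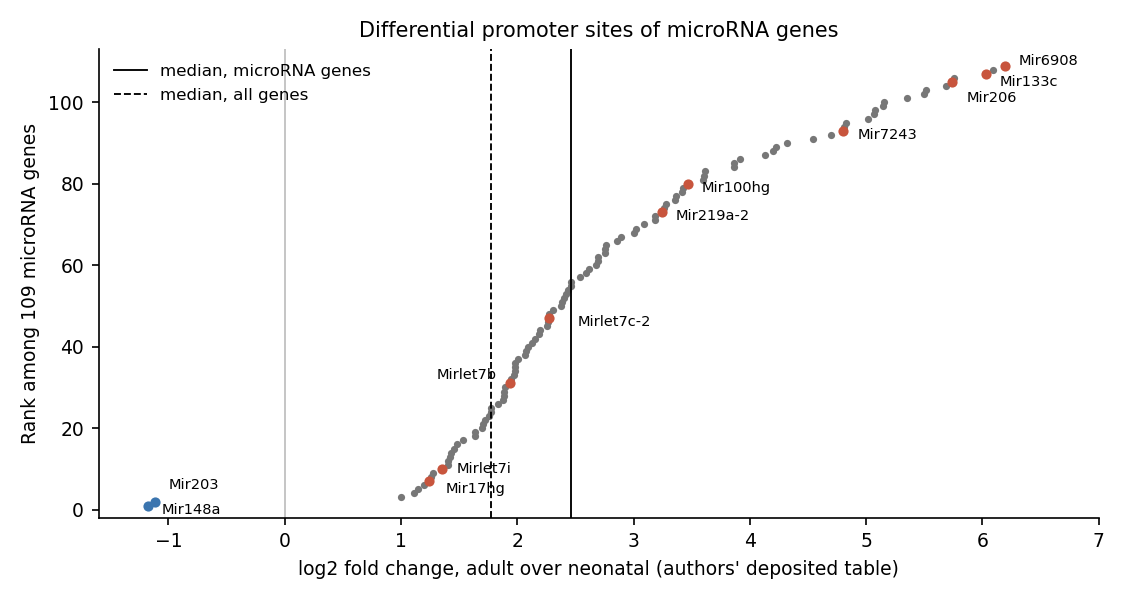
Each point is 1 of 109 microRNA genes, ranked by the log2 fold change (adult over neonatal) of its most significant promoter site in the authors' deposited table. Lines mark the medians of 2.46 for these genes (solid) and 1.77 for all genes (dashed); Mir148a and Mir203 are the 2 points below 0.

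Mir219a-2 was covered by some of the widest peaks in the adult lists. The neonatal libraries had promoter peaks of 231 and 388 bp in replicate 1, 1692 bp in replicate 2 and 408 bp in replicate 3. The adult libraries had 1 promoter peak each, of 10115, 14300 and 14778 bp. These adult peaks ranked 6, 3 and 27 by width among all peaks of their lists. All 3 adult peaks covered the whole hairpin, whereas the neonatal peaks covered it in replicates 1 and 2 only.

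The adult peaks at Mir219a-2 were also among the strongest. Their fold enrichments over background, the authors' own values, were 25.8, 17.9 and 22.4, which put them in the top 0.441%, 0.189% and 0.310% of their lists by score. The strongest neonatal peaks had fold enrichments of 5.13, 7.63 and 3.46, at the top 25.9%, 14.9% and 86.1% of their lists. The bases covered within 3000 bp were 619, 1692 and 408 in the neonatal libraries, and all 6001 in each adult library. The groups did not overlap, with a difference of 5095 bases that stayed at 5095 when only the 7353 strongest peaks of each list were used. The authors' deposited table gave the most significant site in its promoter class, at chr2:29848966-29849365, a log2 fold change of 3.24 (adjusted p = 1.69e-08). This site took its class from the wide adult peak it overlaps and itself lies more than 3000 bp upstream of the Mir219a-2 start.

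The mature oligodendrocyte markers moved the same way between the ages as Mir219a-2, from 1 of 6 with a promoter peak at the neonatal age to 6 of 6 at the adult age, in every library. Their part in the Mir219a-2 result was not tested.

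Mir338, by contrast, had an assigned promoter peak in neonatal replicate 2 alone, of 141 bp and a fold enrichment of 2.93. The adult peaks over its hairpin, of 2520, 3693 and 12631 bp, were assigned to its host Aatk. Their fold enrichments were 18.7, 16.8 and 10.3, in the top 3.04%, 1.25% and 2.84% of their lists. By position the bases covered around Mir338 were 0, 1588 and 631 in the neonatal and 5472, 5099 and 5787 in the adult libraries. The groups did not overlap (740 ± 800 against 5453 ± 344 bases, SD, n = 3), and with the 7353 strongest peaks of each list the difference was 3751 bases. In the authors' deposited table the promoter sites of Aatk within 3000 bp of Mir338 had log2 fold changes of 3.36 (adjusted p = 3.02e-16) and 2.08 (adjusted p = 0.00125). The hairpin of Mir3065 lies on the other strand of the Mir338 locus and had 0, 1536 and 631 covered bases in the neonatal and 5472, 5004 and 5787 in the adult libraries.

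**Figure D3:**
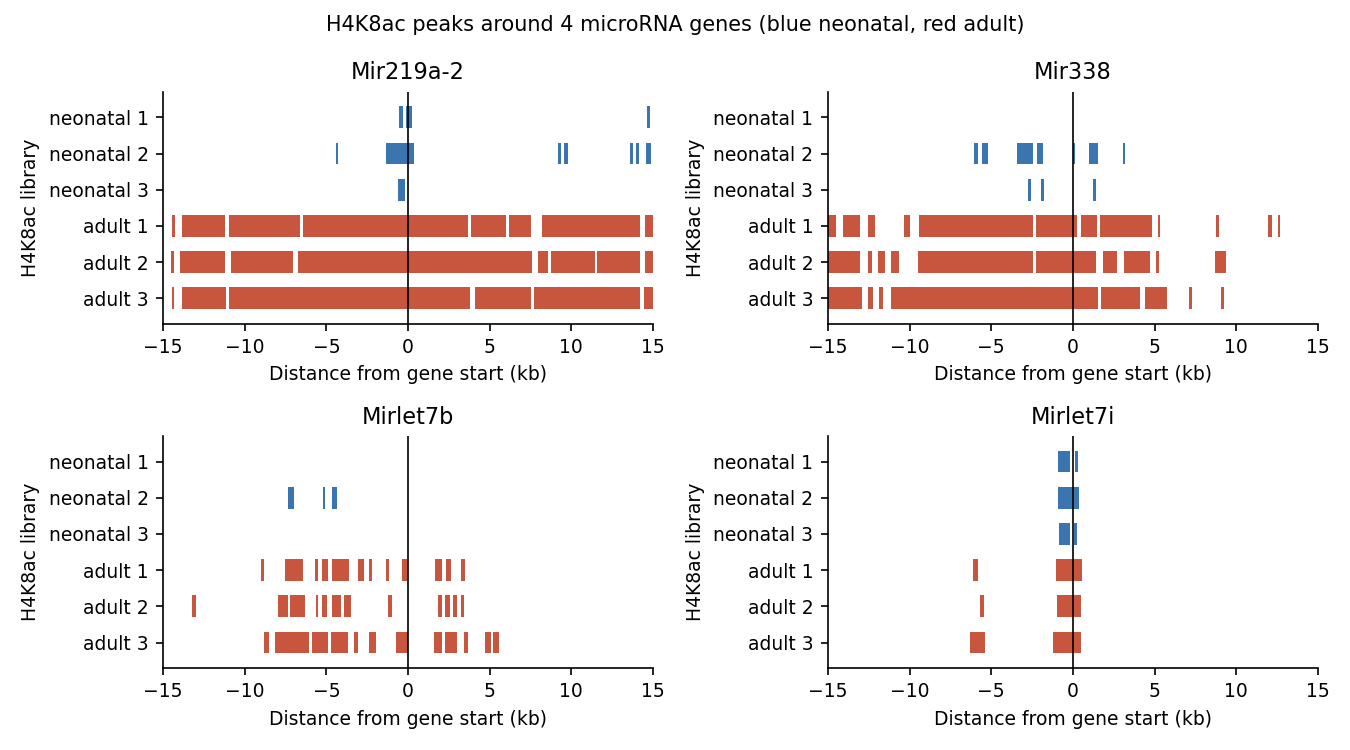
Each panel shows every H4K8ac peak within 15 kb of the start of a microRNA gene (x axis, kb, with transcription to the right) in the 6 libraries, whatever gene the peak was assigned to. At Mir219a-2 and Mir338 the adult peaks (red) form wide blocks over the start, at Mirlet7b peaks near the start are seen in adult libraries only, and at Mirlet7i peaks are seen at the start in all 6, covering 899 to 1299 bases in the neonatal and 1488 to 1731 in the adult libraries.

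Mir219a-1, the other source of miR-219a-5p, lies next to a gene start. Its assigned promoter peak was in neonatal replicate 2 alone, but its hairpin at chr17:34024983-34025092 starts 412 bp from the start of Ring1, a Polycomb gene. The peaks assigned to Ring1 lay over the hairpin in neonatal replicates 2 and 3 and in all adult libraries. Around Mir219a-1, 219, 1769 and 1078 bases were covered in the neonatal and 2020, 2070 and 2611 in the adult libraries. The groups did not overlap, and the means were 1022 ± 777 and 2234 ± 328 bases. The authors' deposited table gave the Ring1 site a log2 fold change of 1.30 (adjusted p = 0.00078), below the 3.24 at Mir219a-2, a difference for which the table holds no test.

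Other microRNAs known from oligodendrocyte differentiation had no peak assigned to their own symbol and were read by position. Around Mir23b, 0 bases were covered in each neonatal library and 5695, 5789 and 5716 in the adult libraries, by peaks assigned to Aopep. The site there had a log2 value of 4.35 in the authors' deposited table (adjusted p = 2.11e-08). Around Mir23a, 620, 583 and 683 bases were covered in the adult and 0 in the neonatal libraries. No base was covered around Mir138-1, Mir138-2 or Mir7b in any library, and around Mir32 only 113 bases in adult 3.

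The let-7 and miR-125 list held 11 of the genes, including the linked miR-99 and miR-100 genes. Others of these families had no assigned peak and are not among the 11. By position, no base was covered in any library around Mirlet7g, Mirlet7f-1, Mirlet7a-1, Mirlet7f-2 or Mir98. Around Mirlet7c-1, Mirlet7e, Mir125a and Mir99a bases were covered in each adult library. In the neonatal libraries 52, 1306 and 5 bases were covered around Mirlet7e, 0, 1137 and 0 around Mir125a, and none around Mirlet7c-1 or Mir99a. At Mir125a neonatal 2 lay above adult 1 and adult 2, which had 1001 and 1008. The let-7 microRNAs are known for their increase as cells leave a proliferating, immature state. Promoter peaks were assigned to 2, 5 and 2 of the 11 in the neonatal and to 8, 9 and 10 in the adult libraries. A promoter site was listed for 7, all higher in adult cells, with a median log2 fold change of 2.27 in the authors' deposited table. Nearly all listed sites share that direction: of all genes with a listed promoter site in the authors' deposited table, 98.96% were higher in adult cells, with the median of 1.77 given above. Of all 23459 genes, 6384, 13708 and 5630 had a promoter peak in the neonatal and 15522, 15128 and 15499 in the adult libraries, and the counts of this and the following lists are to be read beside these.

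Mirlet7i had a promoter peak in all 6 libraries. Around its start 938, 1299 and 899 bases were covered in the neonatal and 1575, 1488 and 1731 in the adult libraries, without overlap. The peaks assigned to Mirlet7i had fold enrichments of 4.34, 14.9 and 5.05 in the neonatal and 34.0, 23.8 and 21.0 in the adult libraries. In neonatal 1 and neonatal 3 a second peak by the Mirlet7i start, of 708 and 661 bp, was assigned to D630033A02Rik and ranked higher, with fold enrichments of 8.20 and 4.82, in the top 1.93% and 20.9% of the lists. In each adult library the peak assigned to Mirlet7i was within the top 0.336% of the list by score. The authors' deposited table gave it a log2 fold change of 1.36 (adjusted p = 0.00222).

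Mirlet7b and Mirlet7c-2 lie side by side within the RefSeq span of Lncppara and had no neonatal peak within 3000 bp. Around Mirlet7b 1663, 1031 and 2306 bases were covered in the adult libraries, and around Mirlet7c-2 1470, 697 and 1856. Their windows overlap, so they are not independent. Their most significant promoter sites had log2 fold changes of 1.94 (adjusted p = 0.000341) for Mirlet7b and 2.27 (adjusted p = 0.0058) for Mirlet7c-2 in the authors' deposited table. Mirlet7d had no promoter peak, and Mirlet7a-2 had one of 170 bp in adult 3.

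Mir100hg, the host gene of Mir100, Mirlet7a-2 and Mir125b-1, had the most promoter peaks of any host gene in the adult libraries, spread over its several start sites. It had 1, 7 and 1 promoter peaks in the neonatal and 14, 15 and 15 in the adult libraries. The bases covered within 3000 bp of its starts were 295, 4107 and 305 in the neonatal and 8663, 8969 and 15432 in the adult libraries. The authors' deposited table gave its most significant promoter site a log2 fold change of 3.47 (adjusted p = 5.85e-05). Within it, Mir100 had a promoter peak in the 3 adult libraries alone (1175, 1065 and 1989 covered bases), with a log2 fold change of 2.76 in the authors' deposited table (adjusted p = 2.49e-05).

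One RefSeq start window of Mir100hg and one of Mir9-3hg are printed as examples of a window covered in some and in all libraries, chr9:41376276-41376575 and chr7:79515185-79515484, each on the plus strand of GRCm38.p6, with CG, which reads the same on both strands, in capitals. All 300 bases of the Mir100hg window lay under a peak in neonatal 2 and the 3 adult libraries, and 0 bases in neonatal 1 and 3. In the Mir9-3hg window 300, 300 and 233 bases lay under a peak in the neonatal and 300 in each adult library. Coverage differed between the start windows of Mir9-3hg: another, at chr7:79499776-79500075 and with 35 CG, had 0, 101 and 0 bases under a peak in the neonatal and 300, 153 and 0 in the adult libraries.

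Mir100hg: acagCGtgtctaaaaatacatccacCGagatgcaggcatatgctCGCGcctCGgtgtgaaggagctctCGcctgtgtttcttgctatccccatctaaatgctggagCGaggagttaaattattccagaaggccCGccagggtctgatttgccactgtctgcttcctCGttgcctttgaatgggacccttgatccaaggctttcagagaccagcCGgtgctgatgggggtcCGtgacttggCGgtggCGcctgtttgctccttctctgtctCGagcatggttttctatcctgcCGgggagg
Mir9-3hg: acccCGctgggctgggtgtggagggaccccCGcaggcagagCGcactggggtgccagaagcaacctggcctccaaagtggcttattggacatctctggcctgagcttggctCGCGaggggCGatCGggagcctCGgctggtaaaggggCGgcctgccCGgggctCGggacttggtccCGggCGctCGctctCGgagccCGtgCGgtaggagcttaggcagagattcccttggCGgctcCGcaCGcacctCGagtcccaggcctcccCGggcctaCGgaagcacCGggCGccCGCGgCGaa

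The Mir100hg window held 15 CG and the Mir9-3hg window 28. Over the 32851 RefSeq windows of the same length the median was 7, and 34.6% held at least 15 and 14.2% at least 28.

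Mir99ahg, the host gene of a second let-7 and miR-125 cluster, had 0, 4 and 0 promoter peaks in the neonatal and 8, 10 and 10 in the adult libraries. Its most significant promoter site had a log2 fold change of 2.75 in the authors' deposited table (adjusted p = 7.08e-05). Mir125b-2, which lies in that cluster, had 0, 167 and 0 covered bases in the neonatal and 1344, 1577 and 1820 in the adult libraries. The log2 fold change of its site in the authors' deposited table was 2.27 (adjusted p = 4.81e-05).

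**Figure D4:**
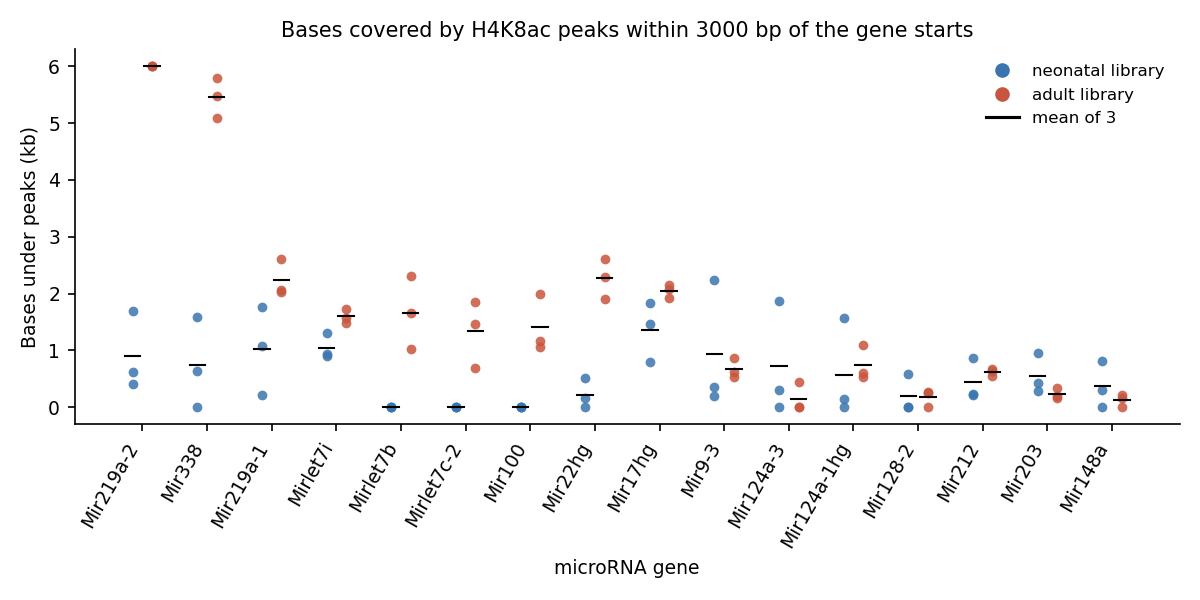
Each point gives the bases (kb) under H4K8ac peaks within 3000 bp of the start of a microRNA gene in 1 library (blue neonatal, red adult), with the mean of the 3 libraries of an age as a black line. The adult points lie above the neonatal ones at Mir219a-2, Mir338, the let-7 genes, Mir100 and Mir22hg, and overlap them at Mir9-3, the Mir124 genes, Mir128-2, Mir212, Mir203 and Mir148a.

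Mir17hg, host of the Mir17 cluster that is known to promote proliferation, had a promoter peak in all 6 libraries. Its covered bases were 1461, 1839 and 795 in the neonatal and 2146, 2075 and 1927 in the adult libraries, without overlap. The authors' deposited table gave it a log2 fold change of 1.24 (adjusted p = 0.00421). Mir22hg had 156, 510 and 0 covered bases in the neonatal and 2300, 1912 and 2604 in the adult libraries, and a log2 fold change of 2.08 in the authors' deposited table (adjusted p = 0.000318). With the 7353 strongest peaks of each list the Mir22hg difference was -52 bases, adult minus neonatal. Mir670hg had 0, 190 and 0 covered bases against 429, 557 and 779, and a log2 fold change of 1.26 in the authors' deposited table (adjusted p = 0.00944). Mir155hg, the host of an immune-cell microRNA, had a peak of 148 bp in adult 1 alone. The nearest start that the lists give for Mir155hg lies 9856 bp from its RefSeq start. Within 3000 bp of its RefSeq span no base was covered in any library. Over the 9 host genes, promoter peaks were found at 4, 8 and 3 in the neonatal and 8, 7 and 7 in the adult libraries, and 6 had a listed site, all higher in adult cells in the authors' deposited table, where the share of all genes with a promoter peak was 64.4%.

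Genes of microRNAs known from neural progenitors had peaks at both ages. Of 11 on that list, 2, 4 and 2 had a promoter peak in the neonatal and 6 in each adult library. Mir9-3, a source of miR-9 that is known from neural progenitors, had a promoter peak in all 6 libraries, with 195, 2247 and 357 covered bases in the neonatal and 624, 863 and 529 in the adult libraries. The neonatal mean of 933 ± 1141 lay above the adult mean of 672 ± 172, but without neonatal replicate 2 the adult libraries were higher by 396 bases. No promoter site of Mir9-3 was listed in the authors' deposited table, while Mir9-3hg had one with a log2 fold change of 1.43 (adjusted p = 0.00981). Mir34b had 0, 572 and 0 covered bases in the neonatal and 303, 165 and 163 in the adult libraries. Mir26b, within Ctdsp1, had 437, 914 and 383 covered bases in the neonatal and 1665, 1672 and 2261 in the adult libraries, without overlap, and a log2 fold change of 1.89 for its site in the authors' deposited table (adjusted p = 0.00408).

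The 6 genes of neuronal microRNAs had no promoter site in the authors' deposited table. Promoter peaks were found at 3, 5 and 1 of them in the neonatal and 4, 3 and 2 in the adult libraries, with ranges that overlapped. Mir124a-3, a source of the neuron-enriched miR-124, had 311, 1878 and 0 covered bases in the neonatal and 437, 0 and 0 in the adult libraries. Mir124-2hg had peaks in neonatal 2 alone (377 bases). Mir124a-1hg had 153, 1573 and 0 bases in the neonatal and 1099, 604 and 541 in the adult libraries, and Mir128-2, within Arpp21, had 0, 584 and 0 against 246, 275 and 0. Of 5 neuronal marker genes, 0, 3 and 1 had a promoter peak in the neonatal and 4, 2 and 2 in the adult libraries. Their part in these peaks was not tested.

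At Mir212 and Mir132 the age pattern of the assigned peaks differed from that by position. Both microRNAs come from 1 short transcript that is known to respond to neuronal activity. Mir212 had an assigned promoter peak in 3 neonatal libraries and in adult 2. In adult 1 and adult 3 the peak over it was assigned to Mir132. By position Mir212 had 233, 866 and 224 covered bases in the neonatal and 645, 543 and 679 in the adult libraries. The groups overlapped through neonatal replicate 2.

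Mir8102 was the 1 gene with promoter peaks in all neonatal and no adult libraries as assigned, and it did not keep this pattern by position. The adult peaks over it, assigned to Pip4k2b, whose start lies 193 bp away, covered 1073, 1053 and 1061 bases, against 185, 738 and 572 in the neonatal libraries. Of the 237 microRNA genes with a promoter peak, 36 had one in more neonatal than adult libraries as assigned. By numbers of neonatal and adult libraries, 26 had 1 and 0, 4 had 2 and 0, and 2 had 2 and 1. Another 1 had 3 and 0, and 3 had 3 and 1. The same patterns held 1035, 162, 138, 49 and 75 of the 18569 genes of any kind with a promoter peak. A further 101 of these 18569 had 3 and 2, a pattern of 0 microRNA genes. The counts by position that follow were not made over all genes. By position 23 of these 36 had a peak in all 3 adult libraries, and 23 had more covered bases in adult libraries on average. The 11 with no adult peak by position all had theirs in neonatal replicate 2 alone.

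The 52 genes with promoter peaks in adult libraries alone were also read by position. By that measure, 46 of them (88.5%) had no neonatal peak within 3000 bp, against 81.9% of the 2251 genes of any kind with the same pattern. A promoter site higher in adult cells was listed in the authors' deposited table for 50 (96.2%), against 92.1% of those 2251. These shares follow in part from the choice of the genes by their peaks and are a description. The hairpin itself was covered in all 3 adult libraries at 10 of the 52. Of those with the largest covered length, Mir1192 lies within Klf9, which encodes a transcription factor, and Mir7243 within Ephb1, which encodes an ephrin receptor.

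Mir7239 had 0 covered bases in each neonatal library and 4579, 5295 and 5712 in the adult libraries. Mir7243 had 0 in the neonatal and 4765, 5255 and 5332 in the adult libraries, and 21, 19 and 21 peaks of any class were assigned to it there. Its promoter site at chr9:102304360-102304759 had the largest log2 fold change of any promoter site of a microRNA gene in the authors' deposited table, 7.69 (adjusted p = 1.03e-10). Mir1192 followed with 3886, 3598 and 5003 adult bases, and 0 neonatal ones. Means in the adult libraries were 3980 bases around Mir7117 (within Ank, with 219 bases in neonatal 2), 3614 around Mir3971 (within Slc43a2), 3512 around Mir6908 (within Pdxk) and 3157 around Mir6541 (within Wdfy2). They were 2899 around Mir7656 (within Slc9a9), 2535 around Mir7032 (within Hip1r) and 2425 around Mir7001 (within Cd82). With the 7353 strongest peaks of each list no base was left around Mir1192 in any library. The differences were then 1904 bases at Mir7239 and 1834 at Mir7243, and the adult and neonatal ranges overlapped.

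Next after Mir7243 in size, by the log2 values of the authors' deposited table, were Mir6908 at 6.19 (adjusted p = 3.60e-07), Mir6950 within Loxl2 at 6.09 (adjusted p = 4.51e-07) and Mir133c within Med27 at 6.03 (adjusted p = 7.28e-07). All of these had promoter peaks in the 3 adult libraries and in no neonatal one.

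Mir133c and Mir206 belong to families known from muscle and were among 6 genes with an assigned peak on a list of microRNAs of other cell types. By position, no base was covered in any library around Mir1a-1, Mir1a-2, Mir133a-1 or Mir133a-2, of the same muscle families. Mir133b had 0, 186 and 69 covered bases in the adult libraries. None was covered around the immune Mir155, Mir223, Mir142 and Mir146, the endothelial Mir126a, or Mir143 and Mir451a. Promoter peaks were assigned to 4, 2 and 3 of these 6 genes in the adult and to none in the neonatal libraries. Around Mir133c, 416, 1001 and 1488 bases were covered in the adult libraries, and around Mir206 247, 614 and 673, with 0 in each neonatal library. The log2 fold change of the Mir206 site in the authors' deposited table was 5.74 (adjusted p = 2.42e-06), and that of Mir145b was 1.72 (adjusted p = 0.0423). Their promoter peaks ranked low, with the strongest for Mir206 at the top 81.4%, 57.9% and 53.9% of the adult lists. Among markers of other cells, promoter peaks in each adult library were found at 1 of 4 endothelial and 1 of 4 fibroblast genes, and in the neonatal libraries at 0 of the 4 endothelial genes and at 0, 1 and 0 of the 4 fibroblast genes. Their part in these peaks was not tested.

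Among the 15 microRNA genes with promoter peaks in all 6 libraries, those whose weakest library ranked high included Mir193b, Mirlet7i, Mir5100 and Mir497. Mir193b had 537, 1473 and 432 covered bases in the neonatal and 1130, 907 and 1390 in the adult libraries, with overlap, and no listed promoter site. Mir5100, within Mief2, had 481, 1139 and 159 against 2480, 1891 and 2682 bases, and Mir497 had 516, 1253 and 207 against 956, 640 and 1578. Apart from the negative ones, the smallest log2 fold changes of any promoter site in the authors' deposited table were 1.00 at Mir8120 (adjusted p = 0.0186), 1.03 at Mir1191b (adjusted p = 0.0373) and 1.11 at Mir1932 (adjusted p = 0.0244). Mir1191b, within Nfic, also had a site with a log2 fold change of 2.86 in the authors' deposited table (adjusted p = 9.67e-07).

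Promoter sites higher in neonatal cells were found at 2 microRNA genes. Mir203, known from skin, had a promoter peak in all 6 libraries and 419, 948 and 290 covered bases in the neonatal against 198, 333 and 165 in the adult libraries. The authors' deposited table gave its site a log2 fold change of -1.12 (adjusted p = 0.0370), and with the 7353 strongest peaks the difference was -552 bases, adult minus neonatal. Covered lengths overlapped between the groups in the full lists, through adult 2. Mir148a had 297, 812 and 0 bases in the neonatal and 221, 155 and 0 in the adult libraries, with overlap. In the authors' deposited table its promoter site had a log2 fold change of -1.18 (adjusted p = 0.0414), and a distal intergenic site assigned to it had -2.62 (adjusted p = 0.000465). Neither promoter site was below an adjusted p of 0.005.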

How the data were processed

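H4K8ac ChIP-seq peak lists of 6 libraries from sorted OPCs, 3 neonatal and 3 adult by the labels, were analysed. Peaks were called per library. Per the file headers, the authors deposited each peak with its position, a score, a fold enrichment (a ratio), −log10 p- and q-values, and a ChIPseeker annotation with the assigned gene. The largest q-value over the lists was 0.0489. The authors' deposited differential table gives for a site its log2 fold change with p and adjusted p (each a p-value), and nothing per library. The submitters' processing notes name Trim Galore, Bowtie2 2.4.5, SAMtools, deepTools, MACS2, DiffBind and ChIPseeker, with build GRCm38. All coordinates count from 1.

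A gene's promoter peaks are the peaks assigned to it in the promoter class. Covered bases are the bases under any peak within 3000 bp of the starts that the lists give for the gene. A differential site took the gene and class of the deposited peak with which it shared most bases. A site in the promoter class can therefore lie more than 3000 bp from the start where that peak is wide. The sign of a site was read from its overlap with the lists: of sites with a positive sign, 85.0% to 96.7% had a peak in an adult library and 10.3% to 27.8% in a neonatal one. Scores rank peaks within a list, ties by fold enrichment. Covered bases were compared by an exact permutation test over all 18797 genes with Benjamini-Hochberg adjustment (numpy 2.4.6, scipy 1.17.1), tested on simulated data. RefSeq hairpins were matched for 289 genes.

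The microRNA genes and gene lists were chosen with earlier results of these data known. Each list is described by counts, with no test of the list; the counts over all genes are given with the first list. List patterns that took in unrelated microRNAs were corrected after the files had been read. Named were all members of the oligodendrocyte differentiation list, all host genes, the 10 adult-only genes (and any neonatal-only ones) with the largest difference in covered bases, the 5 largest and 5 smallest log2 fold changes, the 5 strongest genes with peaks in all 6 libraries, and examples from the other lists. Of the genes picked, 2 are not reported here. Mir1961, Mir3065, Mir132, Mir100, Mir125b-2 and the let-7 genes other than Mirlet7i were named for shared seeds, hosts or loci after their values were seen, as were the sequences shown. Replicate numbers do not pair the ages: deviations of same-numbered libraries correlated at -0.0414, 0.0225 and 0.0747. Alternatives were equal list lengths, a stricter q-value (0.005), a 1000 bp window, assignment by position, each library left out and a replicate block.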

Additional observations from a re-analysis of the deposited data

How the results depend on the processing

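Peak number limits the counts. The ratio of microRNA genes with a promoter peak, 3.28 from the full lists, was 0.711 with the 7353 strongest peaks of each list and 2.62 to 4.71 with 1 library left out, highest without neonatal replicate 2. The count of genes with promoter peaks in adult libraries alone was 52 from the full lists. It was 4 with the strongest peaks and 23 when a peak over the gene itself was asked for. With 1 library left out it was 52 to 80. Each setting was counted afresh over all microRNA genes. Of the 52 themselves, 10 had the hairpin covered in all 3 adult libraries. The 1 neonatal-only gene became 7 with the strongest peaks, 0 by position, 0 over the gene itself, and 1 to 3 with 1 library left out. The 2 genes with a promoter site higher in neonatal cells became 0 at an adjusted p below 0.005. The 139 genes whose covered bases did not overlap became 35 with the strongest peaks and 139 to 162 with 1 library left out. Leaving out a library cannot lower the adult-only, neonatal-only and non-overlapping counts, since fewer libraries then have to meet the condition. Those ranges are therefore no check that the counts hold. By construction, 7353 peaks are a smaller share of an adult list than of a neonatal one. Over all genes, the strongest peaks left a promoter peak at 5524, 6332 and 5630 genes in the neonatal libraries. In the adult libraries they left one at 6081, 5422 and 5592. The other counts in this paragraph are of microRNA genes alone and cannot show whether the changes are particular to them. With the replicate number as a replicate block the covered-base count was 142. The numbers pair nothing by the labels or by the check of deviations, and the block's exact sign-flip test cannot give p below 0.25.

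Covered bases, adult minus neonatal, turned sign with the strongest peaks at Mir124a-1hg (-284), Mir125b-1 (-200), Mir193b (-814), Mir212 (-277), Mir22hg (-52), Mir34b (-191), Mir8120 (-257) and Mir9-3hg (-608). Among the other genes picked, no difference was left with the strongest peaks at 14, and the sign of the difference was kept at 21. These 21 were classed by sign alone, so their differences can be much smaller than in the full lists. The genes outside these 8 therefore did not all keep their difference. With a window of 1000 bp Mir9-3 became 225, and without neonatal replicate 2 it became 396. With 1 library left out, Mir124a-1hg ranged from -115 to 671.5 and turned without neonatal 1, neonatal 3 or adult 1. Mir128-2 ranged from -118 to 174 and turned without neonatal 2 or adult 3. Mir34b ranged from -75.7 to 210.3 and turned without neonatal 1, neonatal 3 or adult 1. Mir9-3 ranged from -630 to 396. The cause was not tested.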
